A study of Mus musculus with 45 samples.

Results

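Glypicans and syndecans are cell surface proteins that carry heparan sulfate chains, and the mouse genome encodes 6 glypicans (Gpc1 to Gpc6) and 4 syndecans (Sdc1 to Sdc4). The 10 genes were taken by symbol from the 52636 genes of the deposited expression tables, and each symbol matched 1 row in the table of sorted cells and 1 row in the table of organoids. No expression value was used to choose them.

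A glypican is tethered to the outer membrane leaflet by a lipid anchor, whereas a syndecan spans the membrane and has a short cytoplasmic tail. Their sulfated sugar chains bind Wnt, Hedgehog, FGF and R-spondin proteins, and the enzymes Ndst, Hs2st and Hs6st set how these chains are sulfated. R-spondins raise Wnt signaling by removing the ubiquitin ligases Rnf43 and Znrf3 from the cell surface, usually together with the receptors Lgr4, Lgr5 or Lgr6, and heparan sulfate proteoglycans have been described as partners of Rspo2 and Rspo3 in cells that lack these receptors.

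RNA sequencing was available for 45 libraries, 15 of sorted cells and 30 of organoids. In the Lgr5-DTReGFP line the knock-in disrupts Lgr5, so heterozygotes (HE) keep 1 working copy and homozygotes (KO) keep none, and GFP marks cells that transcribe the locus. At E16.5, GFP-positive cells of the whole small intestine were pooled from litters 85 and 97 (HE pools of 7 and 8 embryos, KO pools of 2 and 6), at E18.5 they came from 2 single HE embryos, and in adults of 2 months from the duodenum and the ileum of HE mice 71 and 77. Another 5 libraries held eGFP+/RFP+ cells of the adult ileum taken 48 h after 2 mg tamoxifen from Lgr5-Cre/+ mice (HE, n = 2) and from mice with the Cre allele over a floxed Lgr5 allele (cKO, n = 3). The organoids were grown from E17.5 small intestine of the Lgr5-DTReGFP line and used at passage 4, as 3 WT cultures (WT10, WT5 and WT30) and 2 KO cultures (KO7 and KO2), each kept in mouse Rspo1, Rspo2 or Rspo3 at 100 or 5 ng/ml.

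Values are CPM, read counts scaled to a common library size with no correction for gene length. Sorted libraries held 1275951 to 9984664 reads, so that 3 reads were worth 0.3 to 2.351 CPM, and organoid libraries held about 18100000 to 33100000 reads. All 8 epithelial markers (among them Epcam, Cdh1 and Krt8) were above 0 in every library. The E16.5 sorts also held transcripts used as markers of other cells. In them 14 mesenchyme markers summed to 1140 to 2140 CPM in HE pools and 239 to 661 CPM in KO pools, 5 erythroid markers to 1060 to 1180 and 308 to 491 CPM. Bulk libraries do not show which cells made these transcripts. The mesenchyme sum was 105 to 111 CPM at E18.5, 22.8 to 75.4 after tamoxifen and no more than 20.0 in the other adult libraries and in organoids. The genotypes also differed in sex makeup: every WT organoid library had the high Xist of a female culture and every KO library the Ddx3y of a male one (with Xist at 0.45 to 39.05 CPM, and at 213.2 CPM in KO2 at 100 ng/ml Rspo1), the tamoxifen HE libraries were male and the cKO libraries female, and KO pool 1 at E16.5 held nearly no Xist (1.55 CPM). Genotype and sex therefore cannot be told apart in organoids or, with the genotypes as labelled, after tamoxifen, and Gpc3 and Gpc4 are X-linked.

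Gpc3 and Gpc4 lie beside each other on the minus strand of chromosome X (GENCODE M21 on GRCm38, chrX:52272426-52613950 and chrX:52053021-52165252), and Gpc5 and Gpc6 beside each other on chromosome 14 (chr14:115092215-116525179 and chr14:116925315-117976544). Gpc1 is at chr1:92831645-92860779, Gpc2 at chr5:138273655-138280005, Sdc1 at chr12:8771323-8793715, Sdc2 at chr15:32920723-33034935, Sdc3 at chr4:130792537-130826319 and Sdc4 at chr2:164424247-164443887. Of the exon bases of Gpc2, 55.6% (2376 of 4274) are shared on the same strand with a readthrough transcript annotated as Gm43720, so their reads cannot be fully told apart and Gpc2 values are uncertain. Gpc1 shares 18.9% of its exon bases with Ankmy1, Sdc3 7.7% with 2 other annotated genes and Gpc5 2.4% with 1, while the other 6 members share none.

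The upstream sequences of Gpc3 and Gpc2 are shown because Gpc3 had the largest difference between stages of any member and Gpc2 the largest between Rspondin doses. Both are from RefSeq (GRCm38.p6) and read 5′ to 3′ on the minus strand, and only bases outside annotated exons were kept. Capitals mark each match to GGGCGG or CCAAT on either strand, letters known as a GC box and a CCAAT box.
Gpc3 (chrX:52613975-52614224): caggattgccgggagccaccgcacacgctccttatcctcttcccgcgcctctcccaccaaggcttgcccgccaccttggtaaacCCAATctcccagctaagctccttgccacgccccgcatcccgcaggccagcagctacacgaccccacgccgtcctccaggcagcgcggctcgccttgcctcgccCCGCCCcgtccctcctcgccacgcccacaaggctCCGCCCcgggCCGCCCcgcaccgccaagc
Gpc2 (chr5:138280027-138280187): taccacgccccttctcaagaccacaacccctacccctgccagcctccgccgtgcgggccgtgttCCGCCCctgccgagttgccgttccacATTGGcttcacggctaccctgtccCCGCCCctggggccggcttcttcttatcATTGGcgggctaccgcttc

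The Gpc3 window of 250 bases was 71.6% G or C, held 25 CG dinucleotides and matched GGGCGG at 3 places and CCAAT at 1. The Gpc2 window of 161 bases, which ends 89 bases before the RefSeq start, was 66.5% G or C, held 13 CG dinucleotides and matched each motif at 2 places. Of 32851 mouse promoters, GGGCGG occurred in 32.7% and CCAAT in 33.8% over the first window and in 18.2% and 21.6% over the second. Neither window held CTTTGA, the core letters bound by TCF factors (13.8% and 9.85% of promoters), or TATAAA (12.4% and 7.71%). The 4 motifs were searched on both strands, none overlapped another in these windows, and the matches are a description of the letters only. Promoters of Gpc1, Gpc6 and Sdc2 were not used here.

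Levels were set side by side between members only as CPM per kb of exon. In E16.5 HE cells Gpc3 stood first at 51.4 to 60.0 CPM per kb, above Sdc4 at 41.2 to 45.2 and Sdc1 at 27.0 to 32.2, with no overlap between these 3. The next 4, Gpc6, Gpc4, Sdc2 and Sdc3, each overlapped their neighbour, and Gpc5 was listed at 0. By E18.5 the order had become Sdc4 (96.3 to 102 CPM per kb), Gpc3 (59.8 to 63.6), Sdc1 (18.3 to 19.1), Gpc4 (10.7 to 10.8) and Sdc2 (4.2 to 5.03), with no overlap among neighbours. In adult cells Sdc4 led at 70.9 to 132 CPM per kb, Sdc1 (13.0 to 22.3) and Gpc4 (11.9 to 15.6) overlapped, Sdc2 was at 5.85 to 6.69, and each of the other 6 was below 0.5.

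In organoids Sdc1 and Sdc4 led and their ranges overlapped at 100 ng/ml (70.9 to 114 and 77.8 to 104 CPM per kb) and at 5 ng/ml (70.3 to 102 and 47.8 to 87.2). Gpc4 (15.3 to 30.8) and Gpc3 (5.78 to 32.5) followed at 100 ng/ml and overlapped each other. The make-up of the family thus differed between settings: Gpc3 made 30.3 to 37.6% of the summed members at E16.5, 30.1 to 32.4% at E18.5, 0 to 0.346% in adults and 2.59 to 27.9% in organoids, whereas Sdc4 made 28.2 to 34.4%, 49.1 to 51.4%, 66.1 to 80.7% and 23.3 to 45.5%. The mean per kb was highest for Sdc1 in 9 of 19 groups, for Sdc4 in 8 and for Gpc3 in 2.

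**Figure D1:**
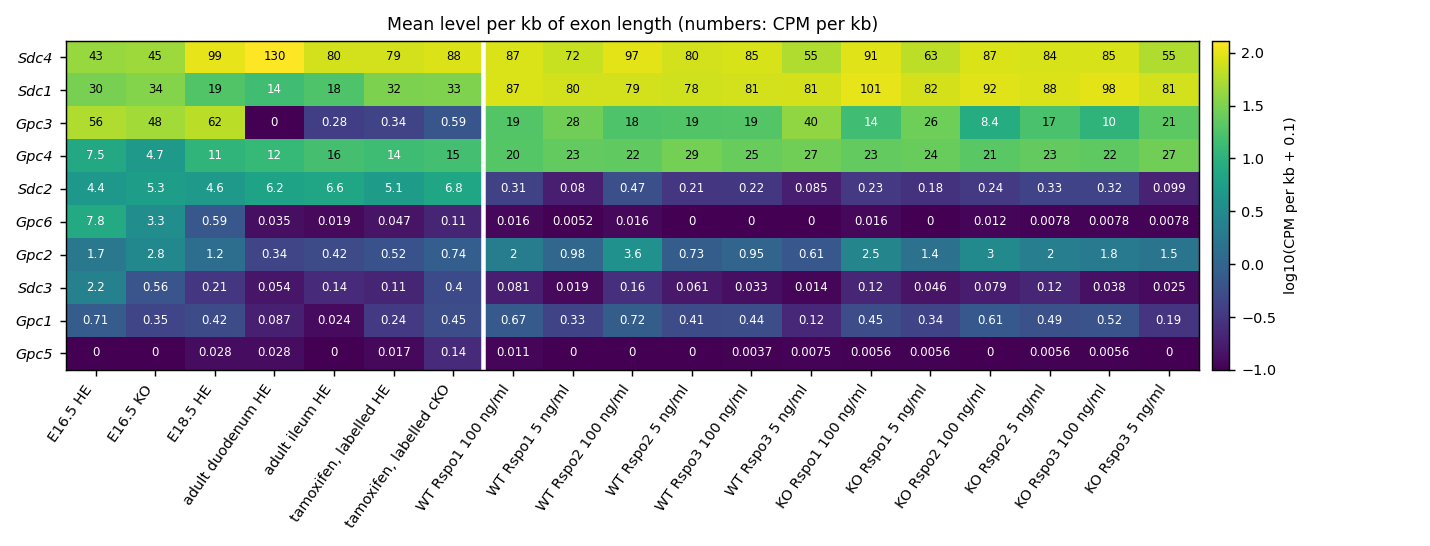
Mean CPM per kb of exon of the 10 members (rows) in the 7 groups of sorted cells and the 12 groups of organoids (columns), coloured on a log scale, with a white line between the separately normalized tables. Gpc3 is among the highest rows in embryonic cells and in organoids and near 0 in the adult groups, and Sdc4 is high in all 19 groups.

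The sorted HE cells of 3 ages address how the family changes as the intestine matures. Gpc3, a glypican that restrains growth of the embryo and whose upstream sequence is given above, was 161.45 and 138.25 CPM in the E16.5 HE pools and 171.15 and 160.8 CPM in the E18.5 embryos. In the 4 adult libraries it was 0, 1.25, 0 and 0.25 CPM, so the adult values lay far below all embryonic ones without overlap. The adult group held 6 Gpc3 reads in all against 1476 at E18.5, a ratio of 512 with an exact 95% interval for counting error of 235 to 1400. All tests used the log2(CPM + 1) scale, which understates the change of a gene near 0. On it Gpc3 fell by 7.01 ± 0.36 (SE) between E18.5 and adult cells (limma, adjusted p = 4.14e-05). Gpc3 passed the low-value filter (at least 1 CPM in 2 libraries) only through the E18.5 libraries. That choice fixed its direction, so the difference and its p-value are given as values only. Between E16.5 and E18.5 Gpc3 differed by 0.15, with a 95% interval of -0.13 to 0.43 (limma, adjusted p = 0.329).

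**Figure D2:**
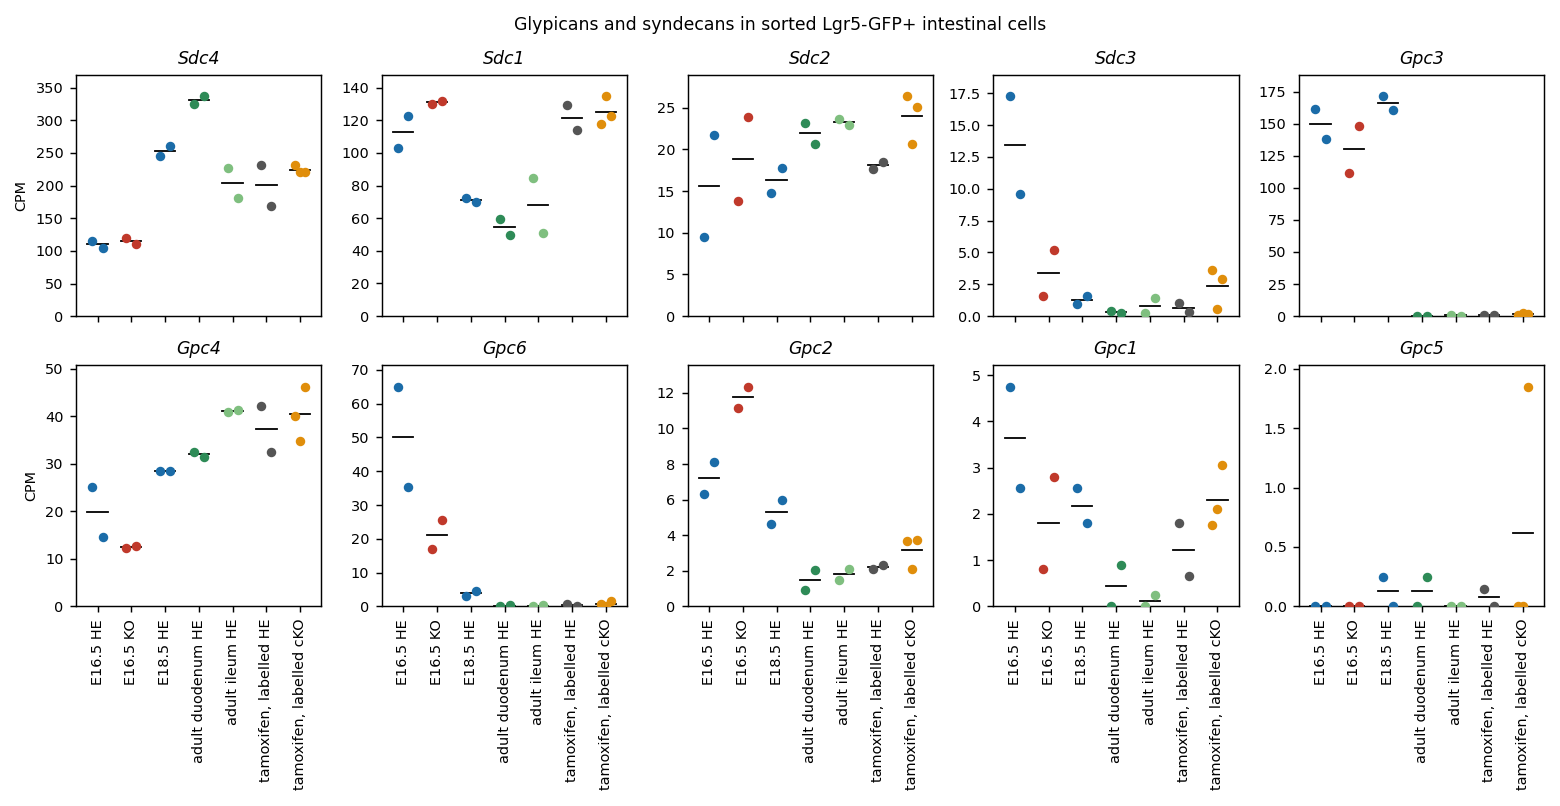
CPM of each member (1 panel a gene) in the 15 libraries of sorted cells, with points for libraries and bars for group means. The 4 E16.5 and 2 E18.5 libraries of Gpc3 sit between 111.45 and 171.15 CPM and the 9 adult ones at or below 2.1, and Gpc6 and Sdc3 are highest in the E16.5 HE pools.

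Of the 9 members tested between E18.5 and E16.5 HE cells 4 were called (1 of them, Sdc3, with its direction fixed by the low-value filter), where 49.6% of 18408 genes did (adjusted p under 0.1 and a fold above 1.5). Sdc4, a broadly expressed syndecan of focal adhesions that binds protein kinase C alpha, was 115.25 and 104.95 CPM at E16.5 and 245.4 and 260.2 CPM at E18.5. Its groups did not overlap, and it rose by 1.19 ± 0.11 on the log2 scale (limma, adjusted p = 0.000617), against a median over all genes of 0.23. Sdc1, the main syndecan of epithelia, was 102.7 and 122.6 CPM at E16.5 and lower, at 72.65 and 69.65, at E18.5. It fell by 0.65 ± 0.13 (limma, adjusted p = 0.00872), and by 0.52, under the fold limit, without E16.5 HE pool 2.

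Gpc6, a glypican of skeletal growth, was 65.05 and 35.35 CPM in the E16.5 HE pools and 3 and 4.6 CPM at E18.5. Sdc3, the syndecan best known from neurons, was 17.25 and 9.6 CPM and then 0.95 and 1.55 CPM. Neither gene overlapped between the stages, and both fell, with log2 differences of -3.37 ± 0.35 for Gpc6 (limma, adjusted p = 0.000989) and -2.64 ± 0.40 for Sdc3 (adjusted p = 0.00335). Sdc3 passed the low-value filter only through the E16.5 pools, which fixed its direction. The 14 mesenchyme markers fell with them, from 1140 to 2140 CPM at E16.5 to 105 to 111 CPM at E18.5, and the 5 erythroid markers from 1060 to 1180 to 26.4 to 54.7 CPM. The part of these markers in the result was not tested, and in bulk libraries fewer cells of a type and less RNA per cell cannot be told apart. Across all 15 sorted libraries the genes most alike to Gpc6 by Pearson's r were the matrix genes Nid1 (0.991) and Col6a2 (0.989), and for Sdc3 they were Mef2c (0.965) and Adamts2 (0.963), as a description over libraries that share stage and makeup.

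**Figure D3:**
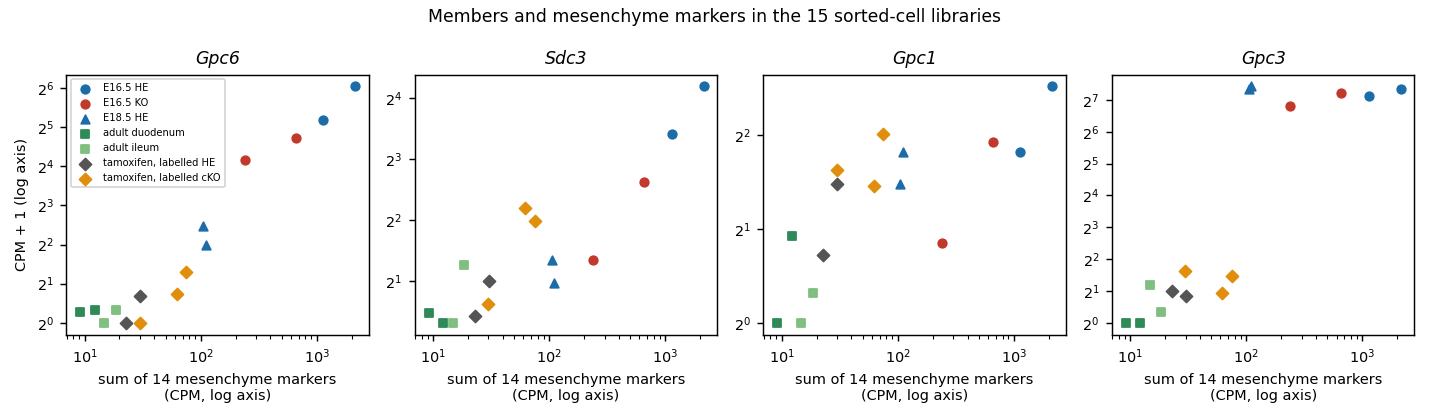
CPM + 1 of Gpc6, Sdc3, Gpc1 and Gpc3 (y axes, log scale) against the summed CPM of 14 mesenchyme markers (x axis, log scale) in 15 libraries of sorted cells. Gpc6 and Sdc3 are highest where the mesenchyme sum is highest, in the E16.5 HE pools, while Gpc3 in the E18.5 libraries is as high as at E16.5 at a marker sum of 105 to 111 CPM.

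The other members tested over this interval were Gpc1, Gpc2, Gpc4 and Sdc2, and none passed. Gpc4 was 25.1 and 14.65 CPM at E16.5 and 28.4 and 28.5 at E18.5 (log2 difference 0.54, limma adjusted p = 0.141), and its difference was 0.91 without E16.5 HE pool 1. Without E16.5 HE pool 2, the difference of Gpc1 was -0.87 (main difference -0.52) and that of Sdc2 0.72 (main difference 0.16). These fits left a single pool at E16.5, so no call is read from them. Gpc2 was 6.3 and 8.1 CPM and then 4.65 and 5.95 CPM, a difference of -0.38 (limma, adjusted p = 0.363).

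Between E18.5 and adult cells the members called were Gpc3, Gpc6, Gpc1 and Gpc2, 4 of 9 tested, all lower in adults. Gpc1, Gpc3 and Gpc6 passed the low-value filter only through the E18.5 libraries, which fixed their direction. Nothing is read from this count, and the p-values of these genes are given as values only. Of 19554 genes 19.0% were called, 9.36% upwards and 9.65% downwards, with a median of -0.04. Gpc6 fell further, from 3 and 4.6 CPM to between 0 and 0.25 CPM, a log2 difference of -2.02 ± 0.26 (limma, adjusted p = 0.00249). Gpc1, a widely expressed glypican, was 2.55 and 1.8 CPM in embryos and 0, 0, 0.9 and 0.25 CPM in adults, a difference of -1.34 ± 0.33 (limma, adjusted p = 0.0321; DESeq2 adjusted p = 0.201). Gpc2, the glypican of the developing nervous system, was 4.65 and 5.95 CPM and then 0.9 to 2.1 CPM, a difference of -1.28 ± 0.29 (limma, adjusted p = 0.0235).

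From the summed reads, E18.5 over adult levels were 23.6 for Gpc6 (exact counting interval 7.42 to 120, from 34 and 3 reads) and 7.91 for Gpc1 (2.86 to 27.1, from 19 and 5 reads). Without E18.5 embryo 1 or embryo 2, Gpc3 alone was called, Gpc2 missed with adjusted p = 0.144 and 0.227, and Gpc1 and Gpc6 could not be tested. The 4 adult libraries come from 2 mice, and with the regions of each mouse averaged the same number of members, 4, was called.

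The members that stayed in adult cells were Sdc4, Sdc1, Gpc4 and Sdc2. Sdc4 was 325.15 and 336.45 CPM in the duodenum and 227.2 and 180.65 CPM in the ileum, around the 245.4 and 260.2 CPM of E18.5 (log2 difference 0.03, 95% interval -0.55 to 0.62). Sdc1 was 49.65 to 84.9 CPM, overlapping the embryos (difference -0.25, limma adjusted p = 0.49). Gpc4 was 31.45 to 41.25 CPM, above 28.4 and 28.5 in the embryos (difference 0.34, adjusted p = 0.203), and Sdc2 20.65 to 23.6 CPM, above 14.8 and 17.75 CPM (difference 0.45, adjusted p = 0.0895, under the fold limit). Neither range overlapped, and neither difference passed. How many of all genes did not overlap was not counted here either, so nothing is read from it. The summed Paneth cell markers were 146 to 152 CPM at E18.5 and 11400 to 28700 CPM in adults, and leukocyte markers 19.9 to 28.3 and 1500 to 3150 CPM. Their part in these values was not tested.

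Gut region was compared in the 2 adult mice. Sdc4 was lower in the ileum than in the duodenum of each mouse, with means of 204 and 331 CPM and no overlap, and it fell by 0.70 ± 0.17 on the log2 scale (limma, adjusted p = 0.0713). It was the 1 member called of 5 tested, where 6.88% of 18608 genes were. With the mouse as a block, a fit that called 11.1% of all genes, the adjusted p was 0.0114, and without a low-value filter it was 0.236. Leaving out the library of duodenum 71, duodenum 77 or ileum 77 also ended the call (adjusted p 0.17, 0.293 and 0.231). Gpc4 was 40.9 and 41.25 CPM in the ileum and 32.5 and 31.45 CPM in the duodenum, which did not overlap either (log2 difference 0.35 ± 0.17, limma adjusted p = 0.373). Sdc1 (0.27), Sdc2 (0.08) and Gpc2 (0.21) overlapped between regions.

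The E16.5 pools address loss of Lgr5 in the embryo. No member passed of 9 tested, where 0.527% of 17276 genes did (91 genes, and 2354 at an unadjusted p under 0.05). Gpc6 was 65.05 and 35.35 CPM in HE and 16.85 and 25.45 CPM in KO pools. Sdc3 was 17.25 and 9.6 CPM in HE and 1.55 and 5.2 CPM in KO pools. Both were lower in the KO pool of each litter. The groups did not overlap for these genes, nor for Gpc2, Gpc4 and Sdc1. How many of all genes did not overlap was not counted, so nothing is read from it. The log2 differences of Gpc6 and Sdc3 were -1.17 ± 0.31 (limma, adjusted p = 0.154) and -1.81 ± 0.51 (adjusted p = 0.181). With the litter as a block Gpc6 (limma, adjusted p = 0.00018) and Sdc3 (adjusted p = 0.00824) were called, in a fit that called 4.8% of all genes. Residuals of the same litter correlated at -0.032, so the pools gave no sign of the pairing that this block assumes. With so few pools, the estimate of the spread in that fit also rests largely on all genes. Without a block, Gpc6 alone was called with TMM scaling (-1.23, limma adjusted p = 0.0981) and with edgeR (-1.26, adjusted p = 0.07). Those fits called 1.41% and 1.79% of all genes. Sdc3 alone was called in 1 fit of all 15 sorted libraries (-1.81, limma adjusted p = 0.0956), which called 4.67% of all genes.

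The mesenchyme markers were lower in the same KO pools, at 239 to 661 CPM against 1140 to 2140 CPM, and their part in the difference was not tested. The direction of Gpc6 and Sdc3 was the same without each pool in turn. Their differences were -1.60 and -2.20 without HE pool 2 and -1.46 and -2.45 without KO pool 2. Both of these fits kept pool 1 of each genotype, where the gap was widest. They left a single pool in 1 group, so no call is read from them. Among the other members Gpc2 was 11.15 and 12.35 CPM in KO against 6.3 and 8.1 CPM in HE pools (log2 difference 0.64, limma adjusted p = 0.447). Gpc4 was 12.3 and 12.75 against 25.1 and 14.65 CPM (difference -0.58, adjusted p = 0.448). Sdc1 was 129.85 and 131.85 against 102.7 and 122.6 CPM (difference 0.22, adjusted p = 0.549). Gpc3 was 111.45 and 148.5 against 161.45 and 138.25 CPM (difference -0.21), and Sdc4 119.9 and 110.4 against 115.25 and 104.95 CPM (difference 0.06, 95% interval -0.27 to 0.39). Reads assigned to Lgr5, which in HE pools come from the intact and the disrupted allele, were fewer in KO pools (log2 difference -0.97, adjusted p = 0.0795) and the Wnt target Axin2 higher (0.92, adjusted p = 0.0795).

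Loss of Lgr5 in the adult ileum was compared 48 h after tamoxifen, in libraries as labelled. No member was called of 8 tested, where 0.0504% of 19848 genes were (10 genes, and 902 at an unadjusted p under 0.05 by limma). Sdc3 had the largest difference, with 1 and 0.35 CPM in libraries labelled HE and 3.6, 0.55 and 2.95 CPM in those labelled cKO (log2 difference 0.89 ± 0.52, limma adjusted p = 0.864), and the groups overlapped. Sdc2, a syndecan of mesenchymal cells, did not overlap, with means of 18.1 CPM in HE and 24.1 CPM in cKO libraries (difference 0.38 ± 0.18, adjusted p = 0.864). Sdc4 was 231.7 and 168.9 CPM against 231, 221.45 and 220.85 CPM, with a 95% interval of the difference of -0.18 to 0.54. Reads assigned to Lgr5 were 52.8 and 87.55 CPM in HE and 89.15 to 109.35 CPM in cKO libraries (log2 difference 0.49, limma adjusted p = 0.864). The floxed allele loses an exon rather than the whole gene, so these reads do not check the genotypes. A second list of the study gave 2 of the 5 libraries the other genotype. Under those genotypes each group held male and female libraries, and no member was called either, while 3.92% of all genes were.

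Organoids were first compared between Rspondin doses, 5 against 100 ng/ml. At the lower dose the Wnt target Lgr5 fell in WT organoids, with log2 differences of -4.49 (Rspo1), -4.52 (Rspo2) and -5.01 (Rspo3). The median over all genes moved as well, by -0.28, -0.17 and -0.24 in WT and by -0.19, -0.04 and -0.24 in KO organoids, and this shift vanished under TMM scaling (medians -0.05 to 0.04), so member differences are to be read against it. Of 48 tests over 8 members (Gpc5 and Gpc6 were too low) 10 were called at an adjusted p under 0.05, all downwards: Gpc1 in 2, Gpc2 in 2, Sdc4 in 4 and Sdc3, which passed the low-value filter only through 2 libraries at 100 ng/ml, in 2. The share of all genes called was 53.4, 33.4 and 51.4% in WT with Rspo1, Rspo2 and Rspo3 and 29.8, 0.115 and 44.5% in KO. Downward calls alone were 40.9, 24.3 and 37.8% in WT and 21.9, 0.115 and 32.7% in KO, against 22.2, 12.6 and 26.1% and 12.6, 0.0478 and 22.2% with TMM. TMM scaling called 46.1, 30.4 and 48.5% of genes in WT and 27.0, 0.0478 and 42.2% in KO in either direction, and 6 of the 42 member tests it allowed, 4 downwards (Gpc1, Gpc2 in 2 contrasts and Sdc4) and 2 upwards (Gpc3 with Rspo3 and Gpc4 with Rspo1 in WT).

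**Figure D4:**
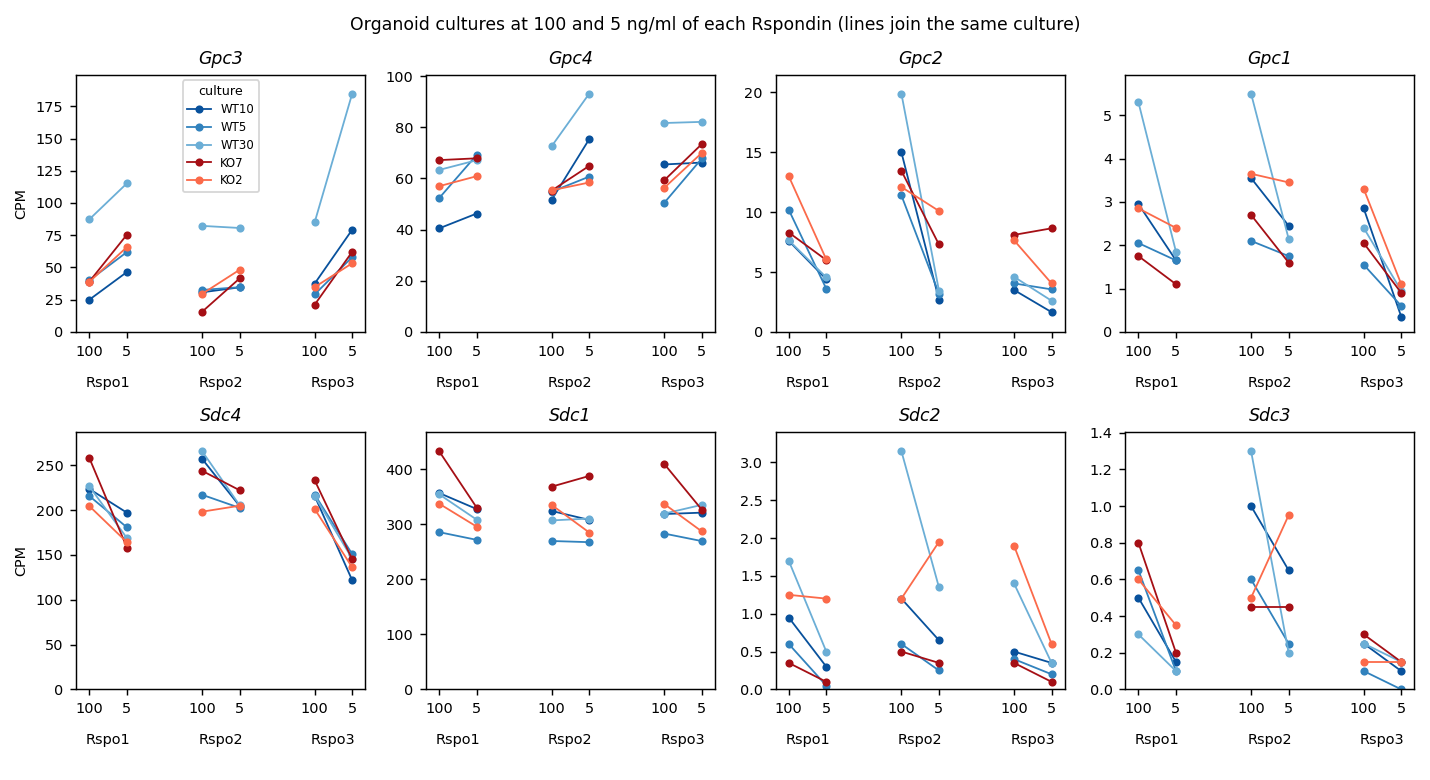
CPM of 8 members (1 panel a gene) at 100 and 5 ng/ml of Rspo1, Rspo2 and Rspo3, with lines joining the libraries of 1 culture (WT10, WT5, WT30, KO7, KO2). Gpc4 is higher at 5 ng/ml in 15 of 15 lines and Gpc3 in 14, and Gpc1 is lower in 15.

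The same cultures were used in all conditions, and samples of 1 culture deviated together, so a fit with the culture as a block is given beside the fit without it. The block called 27 of the 48 member tests. It called 64.1, 47.5 and 61.8% of all genes in WT with Rspo1, Rspo2 and Rspo3 and 43.8, 1.17 and 55.1% in KO. The culture pairs counted by dose are the same cultures under each Rspondin, on CPM without TMM scaling, and are not independent. How many of all genes moved the same way in every pair was not counted.

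Sdc4 fell most plainly with Rspo3. In WT organoids (WT10, WT5, WT30) it was 215.85, 217.4 and 215.8 CPM at 100 ng/ml and 121.7, 150.9 and 145.75 CPM at 5 ng/ml. In KO organoids (KO7, KO2) it was 233.3 and 201.25 CPM and then 145.15 and 136.15 CPM. No value at the lower dose reached any at the higher one, and the log2 differences were -0.64 ± 0.10 (limma, adjusted p = 2.39e-05) and -0.62 ± 0.13 (adjusted p = 0.000408). With TMM scaling the WT difference was -0.38 (adjusted p = 0.011) and the KO difference -0.33 (adjusted p = 0.0663).

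With Rspo1, Sdc4 was 223.6, 215.7 and 226.4 CPM at 100 ng/ml and 197.1, 180.75 and 168.8 CPM at 5 ng/ml in WT organoids, again without overlap (-0.29 ± 0.10, limma adjusted p = 0.0248). This difference was close to the median shift of all genes (-0.28), turned to 0.06 with TMM scaling, and was not called without WT5 or WT30 (adjusted p 0.084 and 0.22). In KO organoids Sdc4 was 258 and 204.45 CPM and then 158.25 and 164.15 CPM (-0.51 ± 0.13, adjusted p = 0.00491), with adjusted p = 0.318 without KO7 and 0.177 with TMM. With Rspo2 it was 257.25, 217.15 and 265.85 CPM and then 204.7, 202.55 and 205.5 CPM in WT (-0.27, adjusted p = 0.0522; with the culture block 0.0226, without KO7 0.0387 and without KO2 0.0389, but -0.02 with TMM, adjusted p = 0.896, and -0.02 with the block and TMM, 0.843), and 243.9 and 198.25 CPM and then 222.2 and 204.9 CPM in KO organoids (-0.04, 95% interval -0.31 to 0.22).

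Gpc2 fell with Rspo2 and Rspo1 in WT organoids. With Rspo2 it was 15, 11.4 and 19.9 CPM at 100 ng/ml and 2.7, 3.2 and 3.45 CPM at 5 ng/ml, the largest dose difference of any member (-1.97 ± 0.23, limma adjusted p = 3.49e-06). With Rspo1 it was 7.6, 10.2 and 7.65 CPM and then 4.4, 3.6 and 4.55 CPM (-0.87 ± 0.23, adjusted p = 0.00331; 0.0667 without WT5). All values at the lower dose lay below those at the higher one. With Rspo3 the level was already 3.5, 4.05 and 4.6 CPM at 100 ng/ml and 1.65, 3.55 and 2.6 CPM at 5 ng/ml (-0.52, adjusted p = 0.0648; 0.0448 without KO7 and 0.045 without KO2). The readthrough gene Gm43720, which shares exons with Gpc2, moved alike (-0.73 with Rspo1 and -1.54 with Rspo2, r = 0.991 with Gpc2 over the 30 organoid libraries), so the 2 transcripts cannot be told apart.

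In KO organoids Gpc2 did not pass without the block in any Rspondin. With Rspo2 it was 13.45 and 12.1 CPM and then 7.3 and 10.1 CPM (-0.52 ± 0.28, limma adjusted p = 0.778). With Rspo1 it was 8.3 and 13 CPM and then 6 and 6.05 CPM (-0.70, adjusted p = 0.0643; with the block 0.0437 and with the block and TMM 0.145), and with Rspo3 8.1 and 7.65 CPM and then 8.65 and 4.05 CPM (-0.35, adjusted p = 0.336). The library of KO2 at 5 ng/ml Rspo2 stood apart from that of KO7, with Axin2 at 433.4 against 138.4 CPM and Lgr5 at 90.45 against 20.55 CPM.

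Gpc1 fell with Rspo3 in both genotypes. It was 2.85, 1.55 and 2.4 CPM at 100 ng/ml and 0.35, 0.6 and 0.95 CPM at 5 ng/ml in WT (95% interval of the difference -1.58 to -0.42, limma adjusted p = 0.00496; 0.137 without WT10). In KO organoids it was 2.05 and 3.3 CPM and then 0.9 and 1.1 CPM (-0.86 ± 0.34, adjusted p = 0.0461; 0.0995 with TMM, 0.0819 without WT10, 0.107 without KO7 and 0.295 without KO2). The doses did not overlap in either genotype. Across all Rspondins Gpc1 was lower at 5 ng/ml in 15 of 15 culture pairs, by 0.06 to 1.51 on the log2 scale, and with the culture block it was also called in WT with Rspo1 (-0.64, adjusted p = 0.00489) and with Rspo2 (-0.54, adjusted p = 0.0212). With the block and TMM neither of these 2 was called (-0.40, adjusted p = 0.06, and -0.36, adjusted p = 0.111). Sdc3 held 0 to 1.3 CPM, near the lower limit of these tables, and only WT10 (1 CPM) and WT30 (1.3 CPM) at 100 ng/ml Rspo2 reached the low-value filter. It was therefore tested only through a group where it was high, and with TMM scaling it could not be tested. Its log2 differences, given as values only, were -0.52 in WT with Rspo2 (adjusted p = 0.00765), where that choice fixed the direction, and -0.40 with Rspo1 (adjusted p = 0.0206; 0.15 without WT5).

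Gpc3 and Gpc4, the neighbours on chromosome X, were higher at the lower dose within cultures. With Rspo3, Gpc3 was 37.45, 29.1 and 85.05 CPM at 100 ng/ml and 79.3, 58.05 and 184.85 CPM at 5 ng/ml in WT organoids. In KO organoids it was 21.1 and 34.75 CPM and then 62.15 and 53.25 CPM. The doses overlapped in WT only through WT30, which was high throughout (mean over its 6 libraries 106 CPM, against 42.2 to 45 in the other 4 cultures). Without the block the WT difference was 1.05 ± 0.50 (limma, adjusted p = 0.0821; 0.00828 without WT30) and the KO difference 1.06 ± 0.61 (adjusted p = 0.165; 0.00628 without WT30). With Rspo1, too, both genotypes passed without WT30 (0.74, adjusted p = 0.0429 in WT and 0.84, adjusted p = 0.0356 in KO).

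With the culture as a block Gpc3 was called upwards in 5 of the 6 dose contrasts. The log2 differences were 0.63 (Rspo1, adjusted p = 0.00746) and 1.05 (Rspo3, adjusted p = 7.84e-05) in WT and 0.84 (Rspo1, 0.00684), 1.02 (Rspo2, 0.0369) and 1.06 (Rspo3, 0.000702) in KO organoids, with an SE of 0.19 in WT and 0.24 in KO. The same 5 were called when the block was combined with TMM scaling, an alternative added after the data were seen. That fit called 42.7% of all gene by contrast tests in either direction. The exception was WT with Rspo2, at 30.7, 32.55 and 82.25 CPM and then 34.55, 34.65 and 80.6 CPM (0.07, blocked adjusted p = 0.769). Upward calls made up 13.5 to 17.0% of all genes in WT and 0.209 to 15.3% in KO in the blocked fit.

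Gpc4, the glypican closest to Gpc6 in sequence, was higher at 5 ng/ml in 15 of 15 culture pairs, by 0.01 to 0.54. It was 51.65, 54.8 and 72.6 CPM and then 75.35, 60.7 and 93.15 CPM with Rspo2 in WT, the 1 contrast called with the block (0.35, adjusted p = 0.0266; 0.159 without it). With the block and TMM it was called upwards in 4 contrasts, in a fit that called 42.7% of all gene by contrast tests in either direction. The doses overlapped, each culture being higher at the lower dose. Sdc1, at 267.75 to 433.4 CPM the most abundant member by CPM, was lower at 5 ng/ml in 11 of 15 pairs, by at most 0.39. It was called only with the block, downwards in KO with Rspo1 (-0.29, adjusted p = 0.00943) and Rspo3 (-0.28, adjusted p = 0.00882), and these differences were -0.05 and 0.01 with TMM. With the block and TMM it was called upwards in WT (0.21 with Rspo1, 0.22 with Rspo2 and 0.27 with Rspo3), so its direction depended on the scaling. Sdc2, at 0.05 to 3.15 CPM in organoids, was lower in 14 of 15 pairs, and with the block it was called in WT with Rspo1 (-0.68), Rspo2 (-0.53) and Rspo3 (-0.40) and in KO with Rspo3 (-0.58). With the block and TMM the WT Rspo3 difference was not called (-0.34, adjusted p = 0.0644).

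**Figure D5:**
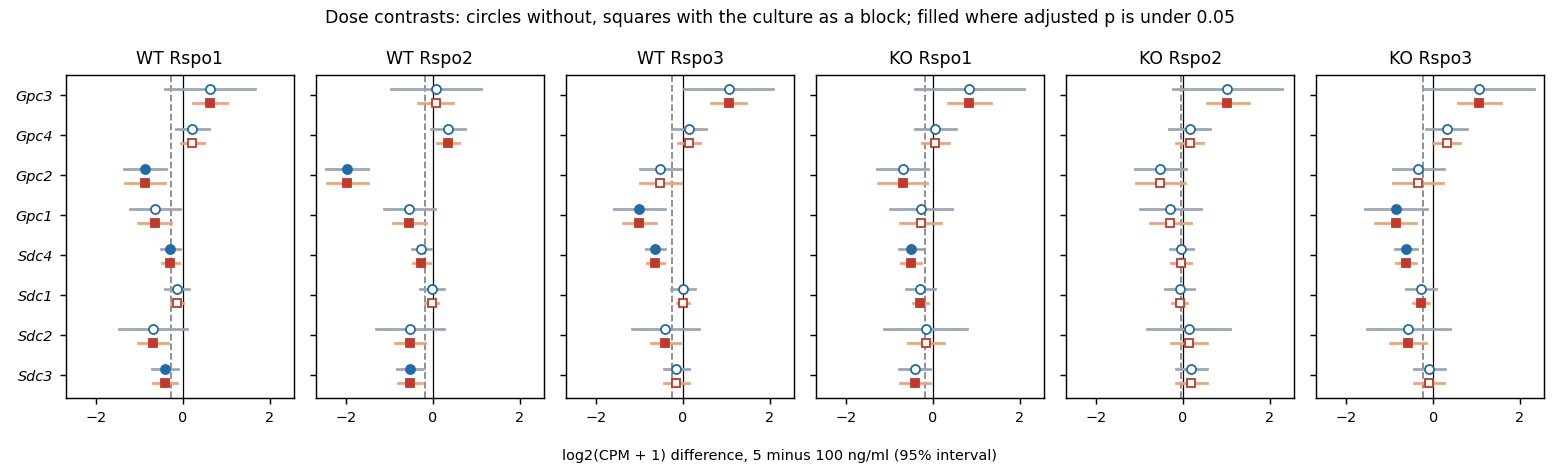
Log2 differences (5 minus 100 ng/ml) of 8 members in the 6 dose contrasts with 95% intervals, circles for the fit without and squares for the fit with the culture as a block, filled where the adjusted p is under 0.05, and a dashed line at the median of all genes. Gpc3 lies above 0 in 6 of 6 contrasts with filled squares in 5, and Gpc1, Gpc2 and Sdc4 lie below 0 in 6 of 6. The values are without TMM scaling, with which Sdc4 was 0.06 in WT with Rspo1 and 0.04 in KO with Rspo2.

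Dose effects were compared between genotypes by an interaction term. No member was called without the block, where 0 genes (Rspo1, Rspo3) and 0.439% of genes (Rspo2) were by limma, with 516, 430 and 2438 genes at an unadjusted p under 0.05. With the block Gpc2 differed for Rspo2, the fall being smaller in KO organoids by 1.45 ± 0.35 (limma, adjusted p = 0.0269; 0.0817 without the block), where 3.97% of genes were called. In the fit with no block the difference was 1.24 without the library of KO2 at 5 ng/ml Rspo2 and 1.73 without culture KO7. The first of these fits left only KO7 in that KO group, and the second left KO2 as the only KO culture. No call is read from either.

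The ligands were then compared at equal dose, Rspo2 and Rspo3 each against the same Rspo1 libraries. At 100 ng/ml no member was called in the fit without the block, where 0.204% (Rspo2) and 0.00523% (Rspo3) of genes were in WT and 0.0105% and 0% in KO. With the block, which called 1.31 and 15.2% of genes in WT and 0.0209 and 0% in KO, Gpc2 was lower in Rspo3 than in Rspo1 in WT organoids (3.5, 4.05 and 4.6 against 7.6, 10.2 and 7.65 CPM, -0.90, adjusted p = 0.0165; 0.0651 without it). At 5 ng/ml 2 tests were called, both of Sdc4, where 22.8% (Rspo2) and 16.4% (Rspo3) of genes were in WT and 17.9% and 16.2% in KO (with the block 35.9, 29.1, 31.9 and 26.3%).

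Sdc4 in WT organoids at 5 ng/ml was 121.7, 150.9 and 145.75 CPM in Rspo3 and 197.1, 180.75 and 168.8 CPM in Rspo1. The ligands did not overlap (-0.39 ± 0.10, limma adjusted p = 0.0138), and the call was lost with TMM (adjusted p = 0.104) and without WT10 (0.354) or WT30 (0.0556). In KO organoids Sdc4 was 222.2 and 204.9 CPM in Rspo2 and 158.25 and 164.15 CPM in Rspo1 (0.40 ± 0.13, adjusted p = 0.0315). That call was lost with TMM (adjusted p = 0.325) and without any 1 culture but WT10 (0.055 to 0.323), and was 0.0763 without the KO2 library in Rspo2. Within cultures at 5 ng/ml, Sdc4 was higher in Rspo2 than in Rspo1 in 5 of 5 and lower in Rspo3 in 5 of 5.

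Gpc3 at 5 ng/ml was lower in Rspo2 than in Rspo1 in 5 of 5 cultures, by 0.42 to 0.85 on the log2 scale. It was 34.55, 34.65 and 80.6 CPM against 46.45, 61.95 and 115.25 CPM in WT and 41.45 and 48.15 against 75.45 and 65.85 CPM in KO organoids. The difference was called with the block only (-0.58, adjusted p = 0.0223 in WT and -0.65, adjusted p = 0.0406 in KO, against 0.44 and 0.502 without it). Gpc1 was lower in Rspo3 than in Rspo1 in 5 of 5 cultures at that dose, and in WT it was called with the block (-0.75, adjusted p = 0.00468; 0.0704 without it). Gpc4 was called with the block in WT organoids in Rspo2 (0.32, adjusted p = 0.0455; 0.219 with the block and TMM), where it was higher than in Rspo1 in 2 of 5 cultures over both genotypes.

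KO and WT organoids were compared at each ligand and dose. Of 48 member tests 1 was called, Gpc2 at 5 ng/ml Rspo2, with 7.3 and 10.1 CPM in KO and 2.7, 3.2 and 3.45 CPM in WT organoids (1.23 ± 0.26, limma adjusted p = 0.0106), where 4.54% of genes were. In the other 5 contrasts, in the order 100 and 5 ng/ml of Rspo1, 100 ng/ml of Rspo2 and 100 and 5 ng/ml of Rspo3, 0.214, 0.125, 1.2, 0.868 and 0.193% of genes were called. The genotypes did not overlap. Without the KO2 library the difference was 1.02 (adjusted p = 0.153), without WT10 or WT30 it missed with adjusted p = 0.0682 and 0.0636, and Gm43720 differed alike (0.88, adjusted p = 0.0255). Over culture means no member was called, where 0.152% of genes were, and the Gpc2 difference was 0.59 (adjusted p = 0.245), that of Gpc3 -0.44 (95% interval -1.33 to 0.45) and that of Sdc4 -0.03 (-0.24 to 0.17).

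Over all 12 organoid groups 3 of 8 members varied by an F test at an adjusted p under 0.001, where 44.6% of genes did. These were Gpc2 with a range of group levels of 4.57-fold (limma, adjusted p = 2.58e-07), Sdc4 with 1.76-fold (3.45e-06) and Sdc3 with 1.80-fold (0.000294). Sdc3 entered this test only through the 2 libraries in which it was highest, so its variation was part of the choice. Gpc1 (2.79-fold, adjusted p = 0.00311) and Gpc3 (4.27-fold, adjusted p = 0.0918) did not pass, and Gpc4, Sdc1 and Sdc2 ranged over 1.46-, 1.30- and 1.93-fold. No member had the 16-fold range that 0.659% of genes passed with.

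Sorted cells and organoids were normalized separately and come from different library kits, so the following levels are given side by side with no test. Gpc4 was 40.45 to 93.15 CPM in 30 organoid libraries and 12.3 to 28.5 CPM in 6 embryonic sorted libraries. Sdc1 was likewise above the sorted range (69.65 to 131.85 CPM) in all 30, at 267.75 CPM or more. Gpc6 and Sdc2 lay below the embryonic range in all 30 organoid libraries, at 0.2 and 3.15 CPM or less. The mesenchyme marker sum was at most 20.0 CPM there and also in the 4 adult libraries of the Lgr5-DTReGFP line. In those adult libraries Sdc2 was 20.65 to 23.6 CPM and Gpc6 0 to 0.25 CPM. The part of the mesenchyme markers in these levels was not tested. Gpc3 stayed at 15.55 to 184.85 CPM in organoids, against 111.45 to 171.15 CPM in embryonic cells and at most 2.1 CPM in 9 adult libraries. Genes most alike to Gpc3 by Pearson's r were Upk3b (0.988), Trim71 (0.986) and the fetal RNA-binding gene Igf2bp1 (0.984) over the 15 sorted libraries, and Fras1 (0.886) over the 30 organoid libraries.

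The enzymes that build and modify heparan sulfate were described as lists beside the members. Of the 11 genes of chain synthesis, all tested, 4 rose and none fell from E16.5 to E18.5 (30.3% of all genes rose), among them Ext2, a chain polymerase (1.36), and Extl3, which starts chains (1.07), and none changed between E18.5 and adult cells. In organoids at 5 ng/ml none of them rose, and 5, 3 and 4 of 11 fell in WT with Rspo1, Rspo2 and Rspo3 and 2, 0 and 3 in KO, near those downward shares of all genes (40.9, 24.3 and 37.8%, and 21.9, 0.115 and 32.7%). Among those that fell in WT were B3galt6, which builds the linker of the chain (-0.86 with Rspo1 and -0.45 with Rspo2), and Extl3 (-0.75, -0.54 and -0.90). The list medians were -0.22, -0.22 and -0.33 against -0.28, -0.17 and -0.24 for all genes.

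Sulfation genes moved both ways. From E16.5 to E18.5, 7 of 14 tested fell (19.4% of all genes did) and 1 rose, and the list median was -0.45 against 0.23 for all genes. The comparison of E18.5 with adult cells could test only 9. Some of the 14 therefore passed the low-value filter with help from the E16.5 pools, which favoured a fall. Nothing is read from this count or median. Among those that fell were the sulfotransferases Hs3st3b1 (-3.33), Hs6st2 (-2.44) and Ndst3 (-2.10), in a comparison in which the mesenchyme markers fell too. Between E18.5 and adult cells 4 of 9 tested rose and none fell (9.36% of all genes rose), with Hs3st3b1 at 1.75, Hs3st1 at 1.52 and the chain-cutting enzyme Hpse at 1.45, and the trimming enzyme Sulf2 was higher in ileum than in duodenum (2.23 ± 0.41, limma adjusted p = 0.0287). At 5 ng/ml Rspondin the sulfotransferase Ndst1 rose in 5 of 6 contrasts, by 0.40 to 0.74, while Hs2st1 fell in the same 5, with differences of -0.99 to -0.65.

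Among the proteases and cytoplasmic partners, Mmp7, a Paneth cell protease that sheds syndecan-1, was 6.74 higher in adult than in E18.5 cells on the log2 scale (limma, adjusted p = 0.00115), as the Paneth markers rose. Of this list 4 rose and 1 fell of 14 tested, where 9.36% of all genes rose and 9.65% fell. In organoids at 5 ng/ml Prkca, the kinase bound by syndecan-4, rose in 5 of 6 contrasts by 0.36 to 0.66, and Tiam1, which binds syndecan-1, fell in the same 5, by 0.96 in WT with Rspo2 and by more in the others. Of a list of other proteoglycans, most of which can carry heparan sulfate, none rose at the lower dose, and 3, 3 and 3 of 7 tested fell in WT and 3, 0 and 4 in KO organoids, where 40.9, 24.3 and 37.8% and 21.9, 0.115 and 32.7% of all genes fell, so that such counts say little about these genes. Cd44, of which some isoforms carry heparan sulfate, fell in 5 of 6 contrasts, with differences of -3.47 to -2.12. Among R-spondin receptors Lgr5, Rnf43 and Znrf3 fell in those 5 contrasts, while Lgr4 differed by -0.30 to -0.09 in the 6 and was called in WT with Rspo3 (-0.30, adjusted p = 0.00748).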

How the data were processed

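The authors trimmed reads with Trimmomatic 0.36, aligned them to the mouse genome with STAR 2.5.3a, counted them per gene with HTSeq 0.9.1 against Ensembl release 90 and deposited counts per gene as CPM, rounded up to the next 0.05, in 1 table of sorted cells (15 libraries) and 1 of organoids (30 libraries). Whether strand was used in counting is not given in the sources used here. Whole reads were recovered from the CPM steps (99.77 to 99.94% of values whole in sorted libraries).

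Differences were tested on log2(CPM + 1) over all genes with at least 1 CPM in 2 libraries by limma 3.58.1 in R 4.3.3, with Benjamini-Hochberg adjustment. Calls in sorted cells needed an adjusted p under 0.1 and a 1.5-fold change, calls in organoids an adjusted p under 0.05, and the test among 12 groups one under 0.001. Every library of a contrast entered its fit, and the organoid fit shared 1 estimate of the spread. Whether compared groups overlapped is given as a description. The share of all genes without overlap was not counted, so nothing is read from it in any comparison. Alternatives were TMM scaling, a pseudocount of 0.1, no filter, leaving out each library or culture, blocks, and edgeR 4.0.16 and DESeq2 1.42.0 on the recovered reads. Intervals on read ratios cover counting error only. The fits were tested on simulated data with known changes.

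Litter, mouse and culture numbers come from the labels. Residuals of the same culture correlated at 0.155 to 0.827 (75 pairs) and of the same adult mouse at 0.257, and those of the same litter at -0.032. The embryos, mice and cultures are the replicates, and libraries of 1 mouse or culture are not independent. The members, the pathway and marker lists and the tests were chosen with earlier results of these data known. The genes named are the 10 members, up to 3 genes most alike to a member by Pearson's r, and from the pathway lists those with the largest called differences. Lgr4 was added after its values were seen. Coordinates and exon lengths are from GENCODE M21, and promoters from RefSeq.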

Additional observations from a re-analysis of the deposited data

Results flagged for a closer look

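Sdc3 in the ileum of adult mouse 77 was 1.4 CPM, against 0.4, 0.25 and 0.25 CPM in the other 3 adult libraries of the Lgr5-DTReGFP line, and its gap to the nearest of them was large for a group of 4. With 7 members examined in that group, chance marks about 1 in 20. The value rests on few reads, and its cause was not tested. The 24 dose effects compared between genotypes held no pair of opposite effects that passed a test of the difference without the culture block.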

How the results depend on the processing

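Of 232 member results, 22 were called, and of their 2445 values under alternatives 2331 stayed on the same side of the threshold, among them 140 sign changes of results that were not called, 37 lost the call, 75 gained one, and 2 reversed (Sdc4 with Rspo1 in WT organoids, 0.06 with TMM scaling and 0.06 with the culture as a replicate block and TMM). Members called between E16.5 KO and HE pools numbered 0, against 2 with the litter as a replicate block and 1 each with TMM, edgeR or 1 fit of all 15 sorted libraries (0 to 2 leaving out 1 library). From E16.5 to E18.5 they were 4 (4 to 5), between E18.5 and adult cells 4 (1 to 4, the lowest without either E18.5 embryo), between regions 1 (0 with no filter, 0 to 1), and after tamoxifen 0 (0 to 0). Over the dose contrasts 10 were called, against 6 with TMM, 27 with the replicate block and 21 with both (6 to 11 leaving out 1 culture), out of 48 tests, or 42 where TMM was used, since Sdc3 (2 of the 10 calls) could not be tested with it. Over the ligand contrasts 2 were called, against 0 with TMM, 1 with no filter, 7 with the replicate block, 7 with both and 1 without the library of KO2 at 5 ng/ml Rspo2 (0 to 2). Between genotypes 1 was called, against 0 without that library (0 to 1), and of the dose by genotype tests 0, against 1 with the replicate block and 1 with both (0 to 1). The test among 12 groups called 3, against 1 with TMM (2 to 3). Sdc4 led in 8 groups per kb and in 5 by CPM without length. The block with TMM and the fits without that KO2 library were chosen after the data were seen. In sorted cells, 3 reads were worth up to 2.351 CPM, which limits Gpc1, Gpc5, Gpc6 and Sdc3. The cause of each change was not tested.

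Counts over all genes moved further. Between E16.5 genotypes 91 genes became 243 with TMM, 2 with a pseudocount of 0.1, 0 with no filter, 830 with the replicate block, 310 with edgeR, 1073 in the fit of 15 libraries and 53 to 1075 leaving out 1 library. From E16.5 to E18.5, 9138 became 6075 with DESeq2 and 5383 to 9570 leaving out 1. Between E18.5 and adult cells 3717 became 927 to 4172, and between regions 1280 became 223 with no filter, 2065 with the mouse as a replicate block and 656 to 1084. After tamoxifen 10 became 18 with no filter, 16 with the label number as a replicate block, 22 with DESeq2, 3 in the fit of 15 libraries, 779 with the other genotype list and 6 to 22. In organoids the ligand count of 14068 became 26746 with the replicate block, 24862 with both and 7609 to 12287, and the genotype count of 1365 became 648 without the KO2 library and 322 to 2781. The dose by genotype count of 84 became 761 with the replicate block, 633 with both, 50 with TMM, 35 with a pseudocount of 0.1, 8 without the KO2 library and 7 to 477, and that of culture means went from 29 to 13 to 234.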

Other observations

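The R-spondin receptors beside the members differed between stages as well. From E16.5 to E18.5 HE cells Lgr5 rose by 1.38 ± 0.12, Lgr4 by 0.86 ± 0.09 and the ubiquitin ligase Rnf43 by 0.70 ± 0.14 on the log2 scale (limma, adjusted p = 0.000595, 0.00107 and 0.00925), in the same libraries in which Sdc4 rose by 1.19. Among other proteoglycans in that comparison Srgn, the proteoglycan of blood cell granules, differed by -4.06, Cspg4, a chondroitin sulfate proteoglycan of pericytes that the list also held, by -2.61 and Tgfbr3, the betaglycan receptor, by -2.16, as the mesenchyme and erythroid markers fell, and their part was not tested.

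Enzymes of heparan sulfate also differed between ligands at 5 ng/ml. Extl3 was higher in Rspo2 than in Rspo1 in WT and KO organoids (0.43 in each, limma adjusted p = 0.00744 and 0.0295), and B3galt6 was lower in Rspo3 (-0.68 and -0.74, adjusted p = 0.0031 and 0.00592). Sulf2, which removes sulfate from heparan sulfate at the cell surface, was higher than in Rspo1 in WT organoids with Rspo2 (1.40) and with Rspo3 (1.35). All of these contrasts share the Rspo1 libraries.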
